A study of Mus musculus with 3 samples.

Results

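The expression of 10 cadherin genes was followed in mouse diffuse-type gastric cancer: Cdh1, Cdh2, Cdh3, Cdh4, Cdh6, Cdh11, Cdh13, Cdh16, Cdh17 and Cdhr2. The members were all gene probes on the array that carried these names, and endothelial Cdh5 was not among them. They had 14 probes, 13 found by the gene name in the scanner files and 1, that of Cdhr2, listed there under its older name Pcdh24 and found through its RefSeq accession. Of the 10 genes, 7 had a probe bright enough to be tested, among 19434 genes tested in all.

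Each of 3 arrays carried 1 primary tumour, labelled in red (Cy5), from a 12-month-old mouse of genotype Atp4b-Cre+;Cdh1loxP/loxP;Trp53loxP/loxP. The green (Cy3) channel of every array carried the same pool of mucosae from 5 normal stomachs of 12-month-old Atp4b-Cre-;Cdh1loxP/loxP;Trp53loxP/loxP mice. Both groups therefore carried the floxed alleles of Cdh1 and of the tumour suppressor gene Trp53, and the tumour mice differed by a Cre recombinase under the promoter of Atp4b, a proton pump subunit of parietal cells. The mucosae of the pool had been freed of stroma mechanically in EDTA, a step that the labels do not give for the tumours. A gene of fibroblasts, vessels or nerves can thus differ through that step or through the tumours, and the design cannot tell these apart. In such bulk tissue fewer cells of a type and less RNA per cell cannot be told apart either. Since the pool counts as a single control, the spread among normal mice does not enter the test, and with every tumour in red a dye effect remains in each ratio.

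Cadherins are calcium-dependent adhesion proteins. The classical ones, such as E-cadherin, N-cadherin and P-cadherin, join neighbouring cells through their outer repeats and hold the actin cytoskeleton through catenins bound to their tails. Atypical members lack that tail: T-cadherin is anchored to the membrane by a lipid, and LI-cadherin, Ksp-cadherin and the protocadherin Cdhr2 have tails that do not bind catenins in the classical way. Gastric epithelium depends on E-cadherin, and its loss marks diffuse-type gastric cancer.

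A value is a log2 ratio of tumour over pool, 1 per array, and a gene was called where limma's moderated test gave a Benjamini-Hochberg adjusted p under 0.05 and the fitted difference was at least 2-fold. Of the 7 cadherin genes tested, 2 were called higher (Cdh13 and Cdh11) and 1 lower (Cdh1), while 4 were not called (Cdh2, Cdh6, Cdh3 and Cdhr2). Of all genes tested, 9.33% were called higher, 9.68% lower and 19.0% either way. In the fit over single probes, 3 of 9 cadherin probes were called, against 17.6% of all probes. The median log2 ratio of the 7 genes was 0.93, and that of all genes 0.05. These counts cover only members that passed the filter on dim probes, so they describe those members and no more. Cdh4, Cdh16 and Cdh17 did not pass it.

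**Figure D1:**
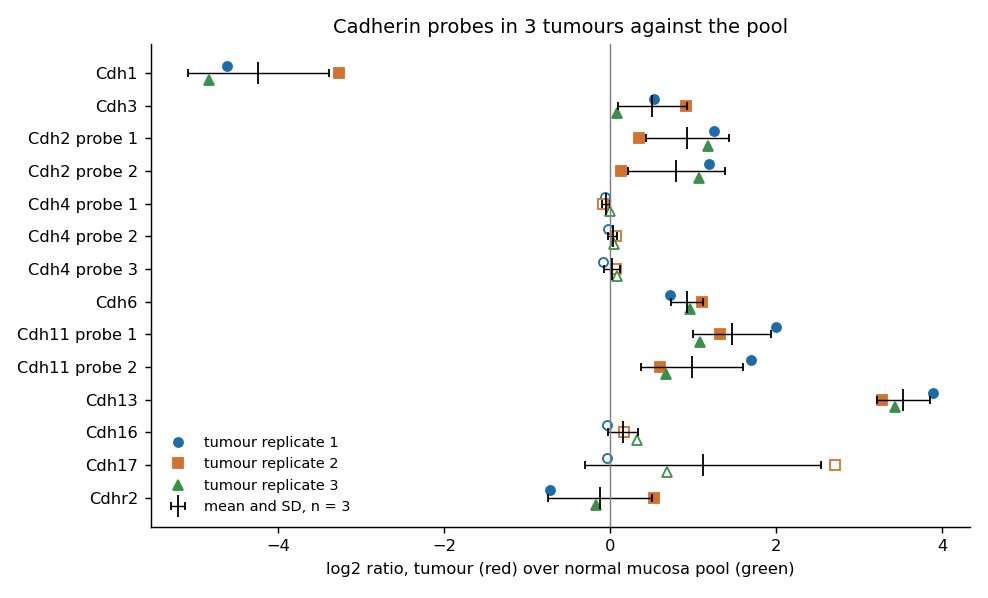
Log2 ratio of tumour over pool (x axis) for each cadherin probe (rows), with 1 marker per tumour and a bar for the mean and SD over 3 arrays; open markers are probes that were not tested because they were too dim. Cdh1 lies between -4.83 and -3.27, Cdh13 between 3.28 and 3.89, and all other probes between -0.72 and 2.71.

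The 60-base probes through which the main results were read are shown in part, to make clear which transcript stretch each ratio stands for. Exon and UTR were not assigned for any of them. The first 30 bases are given for Cdh1 and Cdh3, and all 60 for Cdh13 and Cdh6. Sequences are those of the array files, in lower case, with no part in capitals.
Cdh1: acattctaacgggaaaaaggagacaagacc
Cdh3: tattttccctgttatgtgctgtagatggag
Cdh13: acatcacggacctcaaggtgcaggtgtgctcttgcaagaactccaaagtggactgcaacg
Cdh6: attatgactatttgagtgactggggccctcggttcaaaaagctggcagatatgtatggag
The Cdh1 probe lies on chromosome 8 from 109193812 to 109193871 of mm9, plus strand, and the Cdh3 probe on the same chromosome and strand from 109079933 to 109079992. In RefSeq's gene order for GRCm38, Cdh3 comes directly before Cdh1. The Cdh13 probe lies on chromosome 8 from 121837969 to 121838028 (plus strand) and the Cdh6 probe on chromosome 15 from 12963981 to 12964040 (minus strand).

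Cdh1 encodes E-cadherin, the adhesion protein of epithelial cells and 1 of the 2 genes the Cre was meant to delete. Its red log2 signals in the tumours were 7.77, 9.15 and 7.56 on replicates 1, 2 and 3, and its green log2 signals in the pool were 12.39, 12.42 and 12.39. The 2 channels did not overlap. The log2 ratios were -4.62, -3.27 and -4.83, a mean of -4.24 ± 0.85 (SD, n = 3; adjusted p = 0.00186), or 18.9-fold lower with a 95% interval of 10.1 to 35.4. Tumour 2 kept more Cdh1 signal than the other tumours. Cdh1 was printed 10 times on each array, and the SD over those spots was 0.06, 0.05 and 0.08 log2 units. That SD covers spots of 1 array only, not labelling or hybridisation, and is no measure of the error between arrays. Cdh1 signal also stayed well above background in all 3 tumours. Whether the probe lies inside the loxP-flanked part is not given in the sources used here. The other floxed gene, Trp53, had ratios of -0.12, -0.12 and -0.38 and was not called (adjusted p = 0.161). Its mean of -0.21 was -0.52 with an offset of 0, -0.72 with Agilent's processed signals and -0.999 with spike-in centring (adjusted p = 0.00785), and it was called under no alternative. Atp4b, whose promoter drives the Cre, was at -6.83 ± 0.14 (SD, n = 3).

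Cdh3 encodes P-cadherin, a classical cadherin of basal and stratified epithelium, and is the gene next to Cdh1. Its log2 signals were 7.44, 7.87 and 7.05 in red against 6.90, 6.95 and 6.97 in green. The tumour values were all above the pool values, but tumour 3 exceeded them only slightly. Its log2 ratios came to 0.53, 0.92 and 0.08, a mean of 0.51 ± 0.42 (SD, n = 3; adjusted p = 0.0801), short of the threshold, with a 95% interval from 0.02 to 1.00. The neighbour of Cdh1 thus lay above the pool on every array, unlike Cdh1. When arrays were instead centred on their median spot without loess (median centring), Cdh3 was called at 1.08 (adjusted p = 0.0127). That setting raised the median of all genes to 0.77. In the other direction, Cdh3 was at 0.23 with spike-in centring (adjusted p = 0.595) and at 0.31 without replicate 2 (adjusted p = 0.253). Of 10 basal and squamous epithelium markers, 8 were tested and 3 were called higher, with a summed signal of 4954 to 7860 in red and 3056 to 3251 in green. Krt15 and Dsg3 of that list were not well above background. The part of such cells in the Cdh3 values was not tested.

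Cdh2 encodes N-cadherin, the classical cadherin of neural and mesenchymal cells whose gain beside a loss of E-cadherin is the textbook cadherin switch. Its brighter probe, on the minus strand, had red log2 signals of 8.31, 7.09 and 8.24 and green log2 signals of 7.05, 6.73 and 7.06. Tumours 1 and 3 lay above every pool value, while tumour 2 exceeded the highest of them by little. Ratios on the log2 scale were 1.26, 0.35 and 1.18, a mean of 0.93 ± 0.50 (SD, n = 3), or 1.90-fold with a 95% interval of 1.29 to 2.82. The p criterion was met (adjusted p = 0.0254) and the 2-fold criterion was not, so Cdh2 was not called. The second Cdh2 probe gave 1.19, 0.13 and 1.07, with the same tumour lowest, and was not called (adjusted p = 0.0533 over probes). Cdh2 was called at 1.22 without replicate 2, at 1.48 with a normexp offset of 0, at 1.57 with Agilent's processed signals and at 1.55 with median centring. It lost the p criterion without replicate 1 (0.77, adjusted p = 0.0827), without replicate 3 (0.80, adjusted p = 0.118) and with spike-in centring (0.71, adjusted p = 0.0651).

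The tumour with the most Cdh1 left was the one with the least Cdh2. Tumour 2 had the highest ratio of the 3 for Cdh1, Cdh3, Cdh6, Cdh17 and Cdhr2, and the lowest for both Cdh2 probes, for the fainter Cdh11 probe and for Cdh13. This is a description of 3 tumours, with no test. Among the marker lists, tumour 2 had the highest median for smooth muscle and pericyte markers (0.94, 1.80 and 1.04 on replicates 1, 2 and 3). The same held for macrophage markers (2.13, 2.85 and 2.73) and, by little, for kidney epithelium markers (-0.05, -0.02 and -0.15). Tumour 2 had the lowest median for intestinal markers (0.82, 0.52 and 1.44) and for basal and squamous markers (1.17, 0.64 and 0.74). It lay between the other tumours for simple epithelium (0.22, 0.09 and 0.04) and fibroblast markers (3.43, 3.13 and 1.66). The part of these cells in the order of the tumours was not tested.

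**Figure D2:**
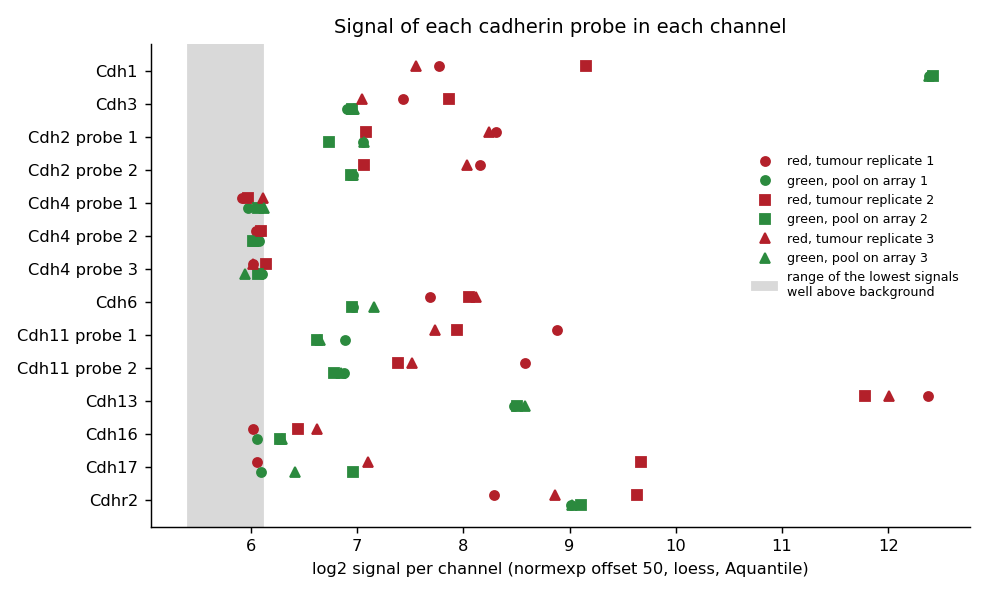
Log2 signal of each cadherin probe (rows) in the red channel of each tumour and the green channel of the pool on each array, with the grey band spanning the lowest signals called well above background on the arrays (5.41 to 6.12). The pool's Cdh1 signals lie at 12.39 to 12.42 against 7.56 to 9.15 in the tumours, while the Cdh4 signals lie at 5.92 to 6.14 in both channels.

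Cdh13, the gene of T-cadherin, had the largest rise among the 7 cadherins tested. T-cadherin sits on the membrane of endothelial and smooth muscle cells through a lipid anchor and binds the hormone adiponectin. Red log2 signals were 12.38, 11.78 and 12.01 and green log2 signals were 8.48, 8.50 and 8.58. The lowest tumour was thus more than 3 log2 units above the highest pool value. The log2 ratios were 3.89, 3.28 and 3.43, a mean of 3.53 ± 0.32 (SD, n = 3; adjusted p = 0.000594), or 11.6-fold higher with a 95% interval of 8.76 to 15.3. Its mean ratio ranked at the 99.6th percentile of all genes tested. The call held under all 15 alternatives, with ratios from 3.35 to 4.71.

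Another probe, which the files name only by an Ensembl transcript and describe as T-cadherin, lay far upstream on chromosome 8, from 121375937 to 121375996. It was not well above background in the pool on any array, and its log2 ratios were 0.40, 0.45 and 0.61. This gives at least a 1.30-fold rise, and the probe was not called over all probes (adjusted p = 0.0161). The large rise of Cdh13 was thus measured at 1 probe, and the dim probe gives only a bound.

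Of 11 endothelial markers 4 were called higher, with a median of 0.91 and a summed signal of 9945 to 20477 in red and 7507 to 7720 in green. Cdh5, the cadherin of endothelial junctions, was at 1.66 ± 0.78 (SD, n = 3; adjusted p = 0.0154), with ratios of 2.51, 1.51 and 0.97, and lost its call without replicate 2 (1.74). Of 10 smooth muscle and pericyte markers 6 were called higher, with a median of 1.47 and a summed signal of 46776 to 92738 in red and 17917 to 21846 in green. All members of both lists were well above background in at least 1 channel. Cdh13 rose by more than the median of either list, and the part of these cells in its rise was not tested.

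Cdh11 encodes OB-cadherin, a classical cadherin of mesenchymal cells and fibroblasts. Its brighter probe lies on chromosome 8 from 105157473 to 105157532 (minus strand) and had red log2 signals of 8.89, 7.94 and 7.73 against green ones of 6.89, 6.62 and 6.65. All tumours lay above all pool values. The log2 ratios were 2.00, 1.32 and 1.08, a mean of 1.47 ± 0.47 (SD, n = 3; adjusted p = 0.00678), or 2.77-fold higher with a 95% interval of 1.90 to 4.02. In the pool this probe was well above background on 1 of 3 arrays, so it was tested through its tumour signal. The mean ratio was 1.68 with a normexp offset of 0 and 3.49 with Agilent's processed signals.

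The second Cdh11 probe was well above background in both channels on every array, with log2 ratios of 1.70, 0.60 and 0.67. Its mean of 0.99 ± 0.61 (SD, n = 3) was just short of 2-fold (adjusted p = 0.0345 over probes). Tumour 1 was highest at both probes. The files place only 105156895 to 105156927 of its 60 bases, and 21 of its bases occur unbroken in a probe for 6820431F20Rik. These 21 bases are in capitals in the stretch from base 8 to base 37, shown because they bear on what the probe can bind.
Cdh11, second probe: TGTTTGAAATCACAACAGACTgaaacacag
The 6820431F20Rik probe itself had log2 ratios of 0.23, 0.14 and 0.06. A probe for a Cdh11 pseudogene elsewhere on chromosome 8 had ratios of 0.15, 0.67 and 1.32, highest in tumour 3 where both Cdh11 probes were not. Neither Cdh11 probe shared any other run of 18 or more bases with the 39429 probes searched, the pseudogene probe included. Transcripts were not searched. Signal shared between Cdh11 and its copies was not tested, so the Cdh11 values are uncertain to that extent.

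Of 10 fibroblast markers tested, 9 were called higher, with a median of 2.82 and a summed signal of 52543 to 166356 in red and 16911 to 18529 in green. Every one of these 10 was above 0 on all 3 arrays. The Cdh11 mean of 1.47 was below that median, whereas with Agilent's processed signals it was 3.49 beside a median of 3.03. The part of stromal cells in the rise of Cdh11 was not tested.

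Cdh6 encodes K-cadherin, a classical cadherin of kidney and other embryonic epithelium. Its red log2 signals were 7.68, 8.06 and 8.12 and its green log2 signals 6.96, 6.95 and 7.16. No tumour value overlapped the pool. Ratios on the log2 scale were 0.72, 1.10 and 0.96, a mean of 0.93 ± 0.19 (SD, n = 3; adjusted p = 0.00509), or 1.90-fold with a 95% interval of 1.54 to 2.35. It met the p criterion and missed the 2-fold one. Its mean equalled that of Cdh2 to 2 decimals, and its SD was 0.19 where that of Cdh2 was 0.50. It was called at 1.03 without replicate 1, 1.47 with an offset of 0, 1.80 with Agilent's processed signals and 1.63 with median centring. Its lowest value was 0.78, with spike-in centring (adjusted p = 0.0393).

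Cdh4, the gene of R-cadherin of retina and nervous tissue, was not well above background at any of its 3 probes in either channel on any array. Its signals give no ratio that can be read. Its probes lie on chromosome 2 at 179581965 to 179582024, 179633818 to 179633877 and 179630828 to 179630887. Of 11 neuron and glia markers, 9 were tested and 1 was called higher, and Gfap was not well above background. Cdh16, the gene of Ksp-cadherin of kidney tubules, was not well above background in the pool on any array and was so in tumours 2 and 3, with log2 ratios of -0.03, 0.17 and 0.33. Of 7 kidney epithelium markers 3 were tested, among them Aqp2 with a mean log2 ratio of -0.01 and Umod with -0.15, and Lhx1, Slc12a3, Pax8 and Slc12a1 were not well above background.

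Cdh17 encodes LI-cadherin, an atypical cadherin of intestinal epithelium. Its probe lies on chromosome 4 from 11744272 to 11744331 (plus strand). It was well above background in tumours 2 and 3, and not in tumour 1 or in the pool on any array. Mean red signals before background correction were 42.4, 1596 and 158 on replicates 1, 2 and 3, over local backgrounds of 32.0, 35.5 and 34.0. Mean green signals were 43.6, 53.8 and 44.5, over local backgrounds of 24.0, 24.5 and 26.0. Tumour 2 was bright, tumour 3 was faint but above background, and tumour 1 was as dim as the pool.

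The log2 ratios of Cdh17 were -0.04, 2.71 and 0.69 after normexp and loess, and 0, 5.28 and 3.72 with Agilent's processed signals. Both settings gave the same order of tumours, and the cause of the difference in size was not tested. Without the filter on dim probes Cdh17 had a mean of 1.12 and was not called (adjusted p = 0.231). A further probe, described as LI-cadherin under an Ensembl name, was well above background in tumour 2 alone, with ratios of -0.20, 0.57 and 0.08. Tumour 2 was thus highest at both probes.

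Cdhr2 encodes a protocadherin that links the tips of neighbouring microvilli in the brush border, where its partner is Cdhr5. Its probe lies on chromosome 13 from 54837957 to 54838016 (plus strand). Red log2 signals were 8.29, 9.64 and 8.86 around green log2 signals of 9.01, 9.11 and 9.03. Tumour 2 lay above the pool and tumours 1 and 3 below it. Its log2 ratios came to -0.72, 0.53 and -0.16, a mean of -0.12 ± 0.63 (SD, n = 3; adjusted p = 0.725), with a 95% interval from -0.81 to 0.57. The spread between tumours was larger than the mean, and no change in a common direction was found. Its sign turned with median centring (0.94), with spike-in centring (0.093) and without replicate 1 (0.18), and it was called under no alternative.

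The other genes of the brush border moved both ways. Of 12 listed, 10 were tested, with 2 called higher and 3 lower, beside 9.33% and 9.68% of all genes. Their median log2 ratio was -0.78. Espn (-2.52 ± 0.33) and Ezr (-2.42 ± 0.11), which bundle microvillar actin and tie it to the membrane, were lower (SD, n = 3 throughout), and Ezr was not called with median centring (-0.88). The actin bundler Vil1 was higher at 1.88 ± 0.88, with ratios of 1.06, 2.81 and 1.76, and was not called without replicate 3 (1.94). Vil1 was highest in tumour 2, as were Cdh17 and Cdhr2. Of the same list, Eps8, Anks4b, Espn, Ezr and Slc9a3r1 were also highest in tumour 2. Calml4, Cdhr5 and Myo1a were lowest there, and Plb1 was highest in tumour 3. These orders were looked up after the values were seen and were not tested. Cdhr5, named here after its value was seen, had ratios of -1.25, -1.29 and -0.20, lowest in tumour 2, and missed the 2-fold criterion at -0.91 ± 0.61. The brush border myosin gene Myo1a, also named after its value was seen, was called lower, with ratios of -1.46, -2.23 and -0.95. Of 11 intestinal markers 8 were tested, with 3 called higher and 1 lower, and a summed signal of 64251 to 99609 in red and 29420 to 34373 in green. Muc2, Cdx1 and Hnf4g were not well above background.

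**Figure D3:**
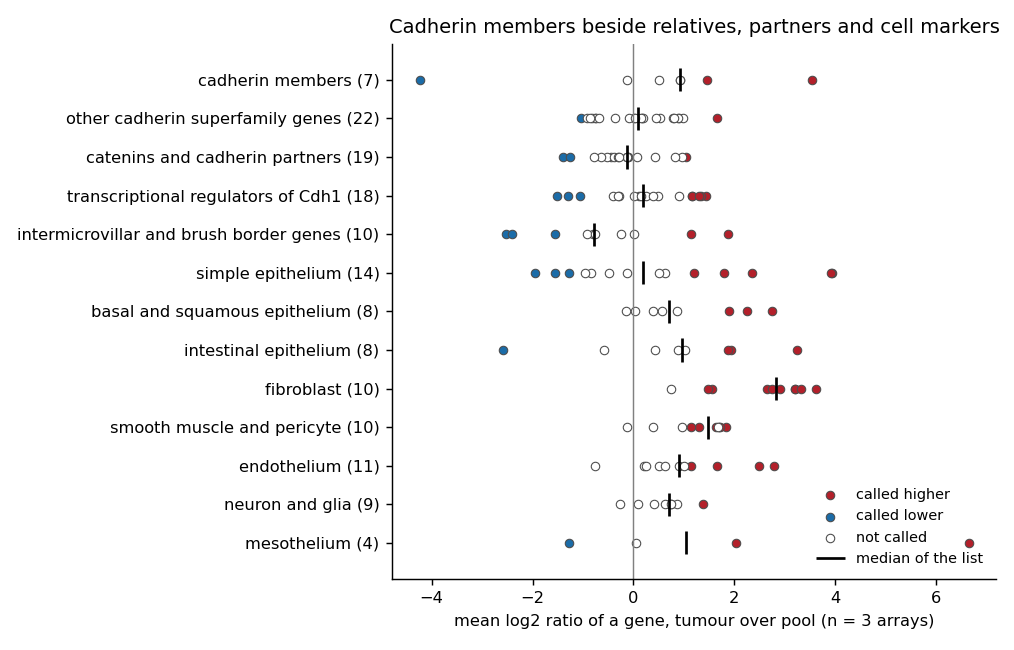
Mean log2 ratio of tumour over pool (x axis) of each gene tested in the cadherin members, their relatives and partners, and markers of cell types (rows, with the number of genes tested), with a bar at each list's median. Cdh1 (-4.24) and Cdh13 (3.53) lie outside the range of the other cadherin superfamily genes, whose called members are Clstn1 (-1.04) and Cdh5 (1.66).

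The other members of the cadherin superfamily gave counts that depended on the processing. Of 42 listed, 41 were on the array and 22 were tested, with 1 called higher, 1 lower and a median log2 ratio of 0.09, beside 0.05 for all genes, of which 19.0% were called. With Agilent's processed signals 7 were called higher and 6 lower, on spike-in centring 3 and 6, on median centring 8 and 0, and 5 and 7 of the 18 with values in the authors' deposited table. The genes called as reported were Cdh5 and Clstn1, a calsyntenin of neurons and epithelium at -1.04 ± 0.26 (SD, n = 3), which lost its call without replicate 2 (-0.90) and with median centring (-0.28). Their direction as a list was not stable. The median was -0.59 with spike-in centring, 0.26 with median centring and -0.27 with the values of the authors' deposited table. The medians of all genes tested were -0.08, 0.77 and -0.10 under those settings.

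The catenins and other partners of cadherins were called about as often as all genes (19.0%). Of 22 listed, 19 were tested, with 1 called higher, 2 lower and a median log2 ratio of -0.14, which median centring turned to 0.93 and centring on spike-ins to 0.078. Under median centring 8 were called higher and none lower, beside 7747 higher and 556 lower of all 19434 genes. The median of all genes was then 0.77. The microtubule anchor Camsap3 (-1.39 ± 0.37) and the actin linker Lima1 (-1.26 ± 0.29) were lower (SD, n = 3), and neither was called with median centring, where Lima1 was at -0.15 and Camsap3 at 0.00. Camsap3 was also not called with spike-in centring (-0.85). The neural delta-catenin gene Ctnnd2 was at least 2.065-fold higher (adjusted p = 0.0436), from a pool signal that was not well above background. It was not called with no filter on dim probes, with spike-in centring (0.71), without replicate 1 (0.70) or without replicate 2 (1.02). The core catenins that bind E-cadherin, named after their values were seen, were not called: Ctnnb1 was at 0.96 ± 0.71, Ctnna1 at -0.45 ± 0.24 and Ctnnd1 at -0.38 ± 0.21 (SD, n = 3).

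Regulators known to repress or sustain Cdh1 transcription, listed together with the epithelial splicing regulators Esrp1 and Esrp2, moved both ways. Of 19 listed, 18 were tested, with 5 called higher and 3 lower, beside 9.33% and 9.68% of all genes. Their median log2 ratio of 0.20 became -0.04 with spike-in centring. With median centring 8 were called higher and none lower. Snai1, a repressor that binds E-boxes of the Cdh1 promoter, had ratios of 2.11, 1.19 and 0.70, a mean of 1.33 ± 0.72 (SD, n = 3; adjusted p = 0.0226). It was not called without replicate 1 (0.95) or without replicate 2 (1.40). Prrx1, a mesenchymal homeobox gene, was on the mean at least 2.72-fold higher (adjusted p = 0.00340) from a pool signal not well above background. The 95% interval of its log2 ratio ran from 1.04 to 1.84. With the median of its probes it was at 0.86 and not called. Grhl1, an epithelial grainyhead factor, was at -1.51 ± 0.05 (SD, n = 3; adjusted p = 0.000988), and at -0.45 and not called with median centring. Its relatives Grhl3 and Grhl2, named after their values were seen, did not move with it. Grhl3 was called higher, on the mean at least 2.23-fold (adjusted p = 0.0356), from a pool signal not well above background. Its log2 ratios were 0.95, 0.54 and 1.98, with a 95% interval from 0.36 to 1.96. Grhl2 was not called (-0.29 ± 0.19). Ovol1 (-1.05 ± 0.22) and the splicing regulator Esrp2 (-1.30 ± 0.52), also named after their values were seen, were called lower beside Grhl1. The zinc finger repressor genes Zeb1 (1.17 ± 0.36) and Zeb2 (1.30 ± 0.49), named after their values were seen, were called higher, whereas Snai2 (0.25 ± 0.48), Twist1 (0.39 ± 0.43) and Twist2 (0.14 ± 0.30) were not called. Snai1, Zeb1 and Zeb2 ratios were lowest in tumour 3, as were the medians of fibroblast (1.66) and endothelial markers (0.37). Medians of simple epithelium (0.04), parietal (-3.99), surface and neck mucous (-4.86), mesothelium (0.68), and neuron and glia markers (0.25) were also lowest there. Those of smooth muscle and pericyte (0.94) and macrophage markers (2.13) were lowest in tumour 1. The part of stromal cells in the Snai1, Zeb1 and Zeb2 ratios was not tested.

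Markers of the stomach's own specialised cells were lower in the tumours. Of 9 parietal cell markers 8 were called lower, with a summed signal of 391105 to 412737 in the pool and 4592 to 8455 in the tumours. All 7 surface and neck mucous cell markers were called lower. Of 14 simple epithelium markers 5 were called higher and 3 lower, with a median of 0.19, and their summed signal of 157491 to 258716 in the tumours overlapped the 248549 to 324298 of the pool. With median centring 8 of the 14 were called higher and none lower.

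**Figure D4:**
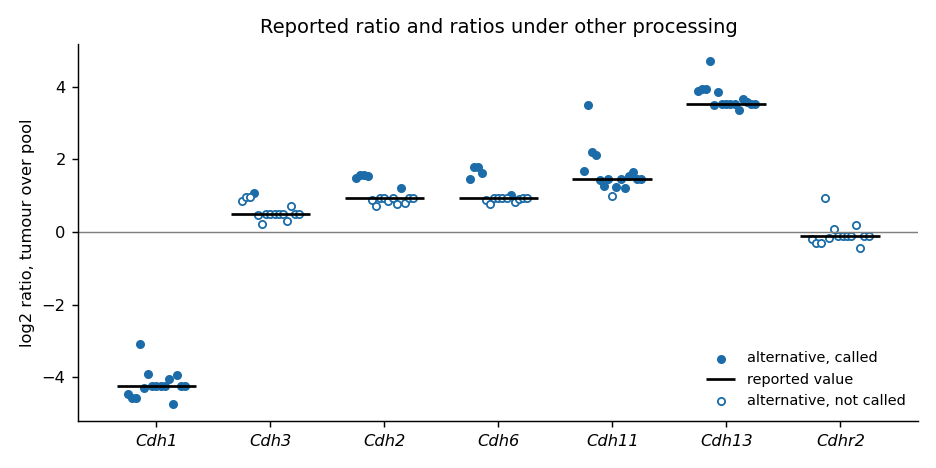
Log2 ratio of tumour over pool (y axis) of the 7 cadherin genes tested (x axis), with a line at the reported value and a point for each alternative processing, filled where the gene was called. Cdh1 (-4.73 to -3.07) and Cdh13 (3.35 to 4.71) were called under all alternatives and Cdhr2 (-0.44 to 0.94) under none, while Cdh2, Cdh3, Cdh6 and Cdh11 each changed their call under at least 1.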

How the data were processed

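Tumours in red were set against 1 pool in green on 3 Agilent arrays. The scanner files hold intensity values per the file headers (spot means and local background medians), from Feature Extraction 10.7.3.1 per the file headers and 9.5.3 per the submitters' processing notes. The deposited processed intensity is background-subtracted and dye-normalised, its ratio a deposited log10 value, and the value table of the authors gives deposited log2 ratios, at 99.8% of filled probes within 0.01 of the scanner ratio on each array. Coordinates are mm9, per the file headers.

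Signals were corrected by normexp (offset 50) and loess in limma 3.58.1 under R 4.3.3, without 157 to 190 outlier spots an array. On the arrays, 52.5 to 54.2% of 43020 gene spots were well above background in green and 64.0 to 66.8% in red. A probe was kept if 1 channel was well above background throughout (24164), and the brightest stood for a gene. Names came from accessions at 26055 of 39429 probes. The test of each ratio against 0 used lmFit and eBayes, adjusted over all 19434 genes. A bound is the bright channel's mean over the dim channel's mean or lowest well-measured signal. It concerns the mean over the arrays and does not cover the spread between tumours. On simulated data of this comparison, 81% of 100 genes changed by 2 log2 units and 94% of 100 changed by 4 were called, with 2 false calls. The simulated noise was independent between genes and centred on 0, so these false calls cover neither a dye effect nor the spread among normal mice. No smaller change was simulated. Lists are described by counts and medians, to be read beside the 9.33% of all genes called higher and the 9.68% called lower. The text names all members and, from the lists of relatives and partners, up to 3 called genes with the largest absolute ratio. Members and lists were chosen with earlier results of these data known. The number of arrays limits the precision. The labels call the tumours biological replicates. Values of some single marker genes are not reported here.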

Additional observations from a re-analysis of the deposited data

How the results depend on the processing

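The number of cadherin genes called, 3 as reported, was 5 with an offset of 0, 5 with the authors' deposited table, 5 when Agilent's processed signals were used, 6 with median centring, and 3 to 4 when 1 replicate was left out. The number of all genes called, 3696 as reported, was 5733 with an offset of 0, 6817 with Agilent's processed signals and 8303 with median centring, and 3436 to 3607 when 1 replicate was left out. Of called genes 93.3% were higher with median centring and 49.1% as reported. Of 104 values of single members under alternatives, 89 kept direction and side of the threshold, 11 gained a call, 1 lost it and 3 turned. Cdh11 lost its call with probes well above background in both channels (0.99), where its second probe stood for it, as it did in the authors' deposited table (2.20). Cdhr2 turned to 0.94 with median centring, 0.093 with spike-in centring and 0.18 without replicate 1, and its values with 1 replicate left out ran from -0.44 to 0.18. With the gene names of the files Cdhr2 had no value. Loess assumes that most genes do not differ at any brightness, and without the offset of 50 the ratios of Cdh2, Cdh3, Cdh6 and Cdh11 were further from 0. Median centring and spike-in centring used no loess, so those settings changed the centre and the dye correction together. No paired analysis was possible because there is 1 group of tumours and the pool is 1 sample.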
